A study of Mus musculus with 12 samples.

Results

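The adipocyte genes described here are 10 genes that mature fat cells express, of which some are also expressed elsewhere: Adipoq, Lep, Retn, Cfd, Plin1, Plin4, Cidec, Fabp4, Lipe and Pnpla2. They were chosen by symbol from the 23282 gene entries counted in the skin of each mouse, with earlier results of these data known. They are secreted hormones, lipid droplet coats, a fatty acid carrier and lipases of fat cells. Skin was taken from male wild-type C57BL/6J mice, 5 weeks old on arrival, with atopic dermatitis (AD)-like lesions induced by the contact sensitizer 2,4-dinitrochlorobenzene (DNCB). Both groups received 0.5% DNCB 3 times a week for 6 weeks and were fasted for 12 h before sampling. The 5 mice of the AD group were kept on normal chow. The 7 mice of the HF + AD group, AD+OB in the deposited labels, ate a diet with 60% of its calories as fat for 10 weeks in all, the first 4 of them before DNCB, so that obesity in this model is diet-induced and in a single strain. Expression was measured by 3′ mRNA sequencing with 1 library per mouse, and no library of untreated skin was analysed here. The comparison asked whether the fat cell transcripts of AD-like skin differed when the mice were also obese.

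White fat cells of the skin lie in the dermal and subcutaneous fat layers, below the dermis and around the hair follicles. They store triglyceride in 1 large droplet coated by perilipins and CIDEC, release it as fatty acids through successive lipases, and secrete hormones such as adiponectin and leptin, of which leptin is known to follow body fat. Adipoq, Lep, Retn, Plin1 and Cidec are largely restricted to fat cells in mice. Fabp4 is also known in endothelium and macrophages, Plin4 in skeletal muscle, and Pnpla2 and Lipe in many other cells. In whole skin, fewer fat cells and less RNA per fat cell cannot be told apart.

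Of the 9 genes that could be tested, 2 were called higher in HF + AD than in AD skin, the lipases Lipe by 1.94-fold and Pnpla2 by 1.80-fold, where 4.43% of all tested genes were called higher. Both calls were lost with GC-corrected counts, with sample quality weights and in both fits of mice 1 to 5 of each group. Adipoq, Retn, Cfd, the droplet coats and Fabp4 did not pass the test, Lep was too low to be tested, and the values of these 8 genes overlapped between the groups. Leptin transcripts were few in both groups, with a median of 1 read in AD and 7 reads in HF + AD mice. In the hormone genes, Plin1, Cidec and Fabp4, mice of the same group differed widely, and AD mice 1 and 2 and HF + AD mouse 7 stood high in most of them.

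The promoters of the genes on which the comparison turned are shown from RefSeq (GRCm38.p6), as the 250 bases before the transcription start, in the direction of the gene. An entry was found for 9 of the 10 genes, with a pair of starts each for Lipe and Cidec. Capitals mark matches, on either strand, to 1 of 5 short motifs searched, the GC box, the CCAAT box, the TATA box, a nuclear receptor core site and the C/EBP palindrome, whose letters are given after the sequences. The first 3 sequences belong to the lipases called higher in the main fit, and the last 2 to hormone genes, of which Adipoq did not pass the test and Lep was not tested.
Pnpla2 (chr7:141454938-141455187, + strand): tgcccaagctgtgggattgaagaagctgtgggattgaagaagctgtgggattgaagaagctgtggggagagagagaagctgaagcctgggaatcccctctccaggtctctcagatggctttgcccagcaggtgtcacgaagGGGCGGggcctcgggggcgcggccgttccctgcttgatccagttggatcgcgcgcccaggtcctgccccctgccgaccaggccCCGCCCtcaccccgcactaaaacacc
Lipe, upstream start (chr7:25395988-25396237, − strand): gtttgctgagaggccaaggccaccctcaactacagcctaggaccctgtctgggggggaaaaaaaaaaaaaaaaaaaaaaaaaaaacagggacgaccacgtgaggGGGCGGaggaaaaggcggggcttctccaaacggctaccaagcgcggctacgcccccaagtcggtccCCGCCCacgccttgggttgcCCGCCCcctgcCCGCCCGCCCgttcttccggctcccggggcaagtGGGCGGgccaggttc
Lipe, downstream start (chr7:25390113-25390362, − strand): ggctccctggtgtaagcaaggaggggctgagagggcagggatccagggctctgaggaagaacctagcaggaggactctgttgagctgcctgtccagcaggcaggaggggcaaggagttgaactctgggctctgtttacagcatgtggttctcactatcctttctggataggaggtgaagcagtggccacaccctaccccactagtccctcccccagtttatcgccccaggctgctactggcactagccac
Adipoq (chr16:23146286-23146535, + strand): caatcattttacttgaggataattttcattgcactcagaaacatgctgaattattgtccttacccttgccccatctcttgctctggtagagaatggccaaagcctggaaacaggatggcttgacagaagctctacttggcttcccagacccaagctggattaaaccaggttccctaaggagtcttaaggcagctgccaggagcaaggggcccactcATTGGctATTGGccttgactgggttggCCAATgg
Lep (chr6:29059971-29060220, + strand): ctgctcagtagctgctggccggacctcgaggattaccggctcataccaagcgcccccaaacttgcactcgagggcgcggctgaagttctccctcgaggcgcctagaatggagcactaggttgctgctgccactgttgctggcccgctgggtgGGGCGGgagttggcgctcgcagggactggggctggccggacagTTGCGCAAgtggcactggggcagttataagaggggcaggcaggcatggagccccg

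GC boxes, written GGGCGG and held by 32.7% of the 32851 promoters in the same table, occurred 2 times before Pnpla2 and 6 times before the upstream start of Lipe, where 2 of the matches overlap. The downstream start of Lipe held none of the motifs. Reads from the 3′ ends of mRNA do not show which Lipe start was used. Adipoq carried 3 CCAAT boxes within the last 34 bases before its start, and 33.8% of all promoters held at least 1. The Lep promoter carried 1 GC box and, from 55 to 48 bases before the start, the C/EBP palindrome TTGCGCAA, which 0.164% of all promoters held. None of these 5 windows held the TATA box, searched as TATAAA and found in 12.4% of all promoters. The nuclear receptor core site, searched as AGGTCA, was also absent from these windows and present in 14.0% of all promoters. These matches are letters in a window and were not measured as binding sites.

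The libraries held between 9746937 and 13462434 counted reads, so that a count of 0 allows up to 3 counts, or 0.223 to 0.308 CPM (reads scaled to a common library total) by library, for counting error only. Between 13100 and 15063 genes had a read in AD mice and between 15522 and 16677 in HF + AD mice, with no overlap, and the part of this difference in the results was not tested. CPM below are on totals scaled by the trimmed mean of M-values (TMM). Fold changes and adjusted p-values are from edgeR's quasi-likelihood test with Benjamini-Hochberg adjustment over the 14163 genes that passed its filter on low counts. Group means are of log2(CPM + 1) with the SD. They were compared by exact permutation of the group labels (two-sided), with every way to divide the mice into 5 and 7, which cannot give a p below 0.00126. The labels give 1 sample per mouse and no litter, cage or batch.

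Of the 9 adipocyte genes tested, 2 were called higher and none lower at an adjusted p under 0.05 in edgeR's quasi-likelihood test, and the same 2 were the only ones with an unadjusted p under 0.05. Across all tested genes 4.43% were called higher, 4.77% lower, 9.20% in either direction, and 25.1% had an unadjusted p under 0.05. The median log2 fold change of the 9 genes was 0.10, beside 0.02 for all tested genes, with 5 above 0 and 4 below. Lep was the gene that did not pass the filter. These counts say nothing of whether the 8 other genes were alike in both groups, since their errors were wide for all except Plin4.

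**Figure D1:**
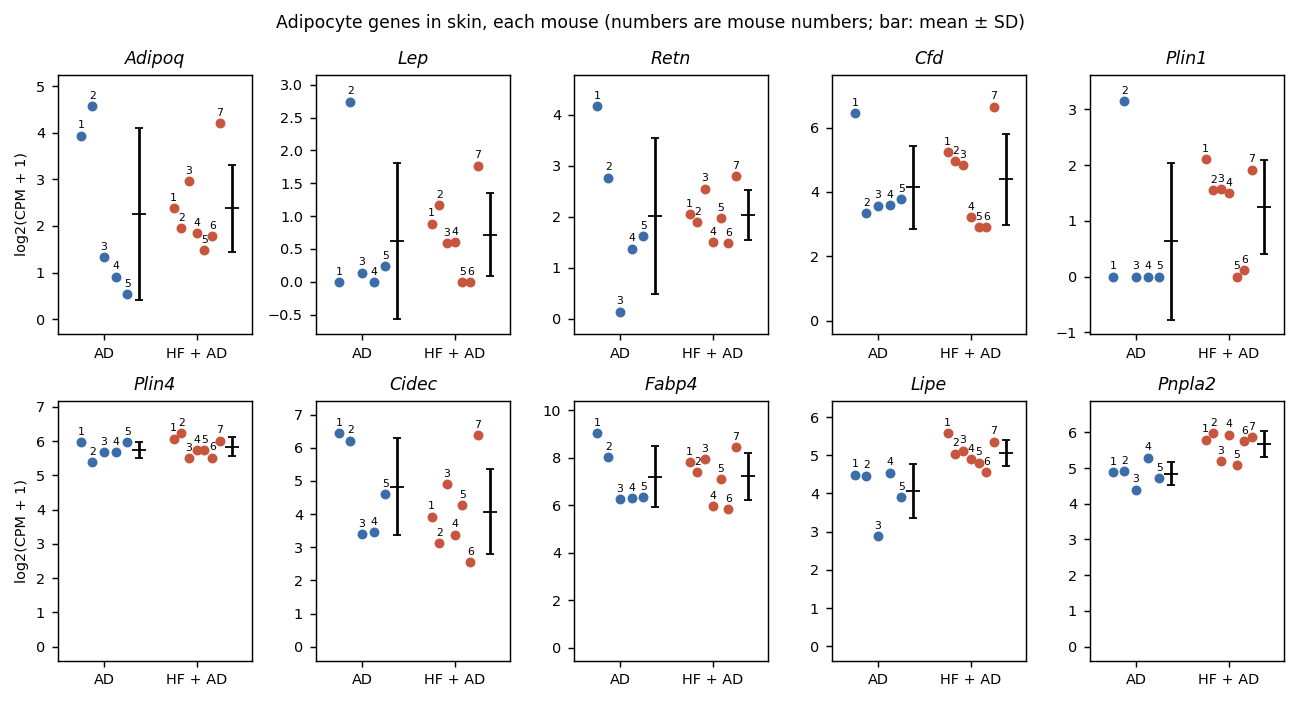
Expression of the 10 adipocyte genes as log2(CPM + 1) in each mouse of the AD (blue, n = 5) and HF + AD (red, n = 7) groups, with mouse numbers beside the points and a bar for the mean and SD. Lipe is the gene whose groups do not overlap, Plin4 has the smallest spread, and AD mouse 2 is apart from its group in Lep and Plin1.

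Lipe (GRCm38 chr7:25379527-25398710, − strand) codes for hormone-sensitive lipase, which cleaves diglyceride. Its level in AD mice 1 to 5 was 21.5, 21.1, 6.36, 22.4 and 13.9 CPM, from 237, 204, 63, 253 and 154 reads. HF + AD mice ranged from 22.6 to 47.1 CPM with a median of 31.95. Every HF + AD mouse was thus above every AD mouse, although the lowest HF + AD value lay just above the highest AD value, and groups did not overlap in 5.46% of all tested genes. The log2(CPM + 1) values averaged 4.06 ± 0.71 (SD, n = 5) for AD against 5.05 ± 0.34 (SD, n = 7) for HF + AD, a difference of 1.00 with an exact permutation p of 0.00126, the smallest this design can give. In edgeR's quasi-likelihood test the log2 fold change was 0.95 (SE 0.29, adjusted p = 0.0456).

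Pnpla2 (chr7:141455198-141460743, + strand) codes for adipose triglyceride lipase, which takes the first fatty acid from triglyceride. AD mice 1 to 5 had 28.7, 29.4, 20.1, 38.3 and 25.3 CPM, from 199 to 433 reads. In HF + AD mice the level lay between 33.2 and 62.5 CPM with a median of 54.8. The groups overlapped, since 5 of 7 HF + AD mice exceeded the whole AD group and AD mouse 4 above HF + AD mice 3 and 5. The log2(CPM + 1) values averaged 4.85 ± 0.33 (SD, n = 5) for AD against 5.67 ± 0.36 (SD, n = 7) for HF + AD, a difference of 0.82 (exact permutation p = 0.00505). The log2 fold change in edgeR's quasi-likelihood test was 0.85 (SE 0.21, adjusted p = 0.0204). Both lipases had AD mouse 3 as their lowest mouse.

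Both calls rested on small margins, though the direction held in all 23 alternative fits. With counts corrected for transcript GC content neither lipase passed edgeR's quasi-likelihood test, with log2 fold changes of 0.77 for Lipe (adjusted p = 0.0953) and 0.61 for Pnpla2 (adjusted p = 0.0582). With voom sample quality weights in limma the adjusted p was 0.0731 for Lipe and 0.0699 for Pnpla2. The Lipe call was lost in 8 of the 12 fits without 1 mouse, with edgeR adjusted p of 0.0576, 0.0629 and 0.0815 without AD mouse 2, 3 or 5, and of 0.103, 0.0817, 0.0645, 0.0669 and 0.0847 without HF + AD mouse 1, 2, 3, 4 or 7. The Pnpla2 call was lost without HF + AD mouse 2 alone (adjusted p = 0.0524). The exact permutation p stayed at or below 0.0182 for both lipases whichever mouse was left out, but it is not adjusted for the number of genes tested. For Lipe it could not rise far, since groups that do not overlap stay apart when any mouse is left out.

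**Figure D2:**
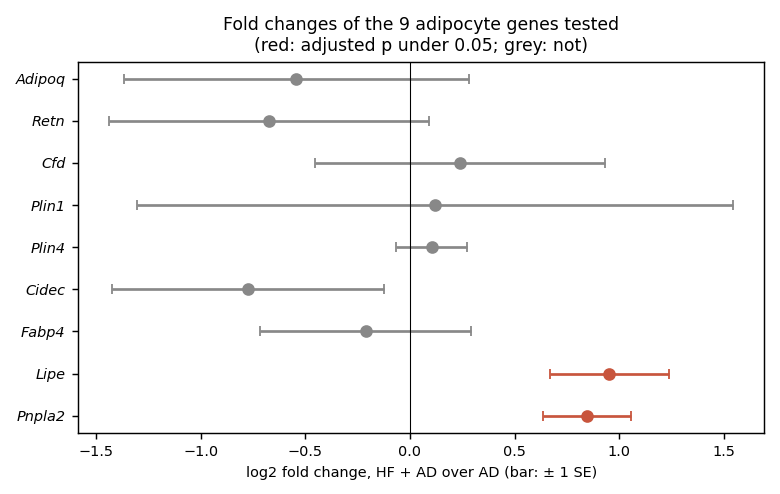
Log2 fold change of HF + AD over AD skin for the 9 adipocyte genes tested, with a bar of 1 SE to each side derived from edgeR's quasi-likelihood test. The red points, Lipe at 0.95 and Pnpla2 at 0.85, passed the test, and the SE of the other genes runs from 0.17 for Plin4 to 1.42 for Plin1.

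Among the hormones, Adipoq (chr16:23146536-23158028, + strand), which codes for adiponectin, was counted at 158, 219, 15, 10 and 5 reads in AD mice 1 to 5, or 14.3, 22.7, 1.52, 0.885 and 0.453 CPM. HF + AD mice had 1.78 to 17.4 CPM with a median of 2.87. The AD group held both the highest mouse and the 3 lowest mice of all 12, and its highest value was 50.1 times its lowest, against 9.80 times in HF + AD mice. The log2(CPM + 1) values averaged 2.26 ± 1.86 (SD, n = 5) for AD against 2.38 ± 0.94 (SD, n = 7) for HF + AD, with an exact permutation p of 0.886. The fitted log2 fold change was −0.54 (SE 0.82, adjusted p = 0.737 in edgeR's quasi-likelihood test), opposite in sign to the difference of 0.12 in mean log2(CPM + 1), and without AD mouse 2 it was 0.35.

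Lep (chr6:29060220-29073877, + strand), the leptin gene, had 0, 55, 1, 0 and 2 reads in AD mice 1 to 5. HF + AD mice had 0 to 32 reads, with 0 in mice 5 and 6. A single mouse, AD mouse 2 at 5.70 CPM, was above all HF + AD mice, whose highest value was 2.41 CPM in mouse 7. The log2(CPM + 1) values averaged 0.62 ± 1.19 (SD, n = 5) for AD against 0.72 ± 0.63 (SD, n = 7) for HF + AD, with an exact permutation p of 0.875. Without AD mouse 2 the difference in means was 0.62 (exact permutation p = 0.0879).

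Retn (chr8:3655770-3660110, + strand), which codes for resistin, was read at 16.9, 5.80, 0.101, 1.59 and 2.08 CPM in AD mice 1 to 5, the third value being 1 read. HF + AD mice lay closer together, between 1.80 and 5.94 CPM with a median of 2.90. Group means of log2(CPM + 1) were 2.01 ± 1.52 (SD, n = 5) and 2.03 ± 0.49 (SD, n = 7), and the exact permutation p was 0.972. The log2 fold change was −0.67 (SE 0.76, adjusted p = 0.641 in edgeR's quasi-likelihood test), and it turned to 0.48 without AD mouse 1.

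Cfd (chr10:79890853-79892655, + strand) codes for adipsin, or complement factor D. AD mouse 1 had 86.0 CPM, while AD mice 2 to 5 lay between 9.12 and 12.8 CPM. HF + AD mice fell into a wider range of 6.46 to 99.4 CPM, the highest in mouse 7, with mice 4, 5 and 6 below every AD mouse. The log2 fold change was 0.24 (SE 0.69, adjusted p = 0.871 in edgeR's quasi-likelihood test), and without AD mouse 1 it was 1.49 (adjusted p = 0.135), the largest move of this gene.

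Because leptin and adiponectin change in opposite directions with body fat in blood, their transcripts were also compared within each mouse. The log2 ratio of Lep to Adipoq, each as CPM + 1, was −3.94, −1.82, −1.19, −0.91 and −0.30 in AD mice 1 to 5 and lay between −2.44 and −0.79 in HF + AD mice. All HF + AD values were inside the range of the AD mice. The means were −1.63 ± 1.40 (SD, n = 5) and −1.66 ± 0.59 (SD, n = 7), with an exact permutation p of 0.981. In the 2 AD and 2 HF + AD mice with 0 reads of Lep the ratio was set by Adipoq alone. AD mice 3 and 5 had 1 and 2 reads of Lep, within the counting error of 0, so only AD mouse 2 measured leptin in its group. The test therefore compares mostly Adipoq and cannot show whether the ratio differed. With a pseudocount of 0.1 in place of 1 the difference changed from −0.03 to 0.33.

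Of the droplet coats, Plin1 (chr7:79720218-79732903, − strand) codes for perilipin 1, which guards the fat cell droplet from lipases. It was read 76 times in AD mouse 2 and not at all in the 4 other AD mice. Among HF + AD mice, 5 had between 21 and 43 reads, mouse 6 had 1 and mouse 5 had 0. Perilipin 1 was thus read in 6 of 7 HF + AD mice, in mouse 6 by 1 read that is within the counting error of 0, and in 1 of 5 AD mice. Every AD library had fewer genes with a read than every HF + AD library, and the part of this in the tally was not tested. The AD mouse with reads had the highest level, 7.87 CPM against at most 3.31 CPM. Group means of log2(CPM + 1) were 0.63 ± 1.41 (SD, n = 5) and 1.25 ± 0.85 (SD, n = 7), with an exact permutation p of 0.317. In edgeR's quasi-likelihood test the log2 fold change was 0.12 (SE 1.42, adjusted p = 0.973). Without AD mouse 2, the only AD mouse with reads, Plin1 passed the filter on low counts through HF + AD mice alone. The test of that fit (edgeR adjusted p = 0.0428) set them against AD mice all at 0. It is no support for a group difference, since the mouse left out was the contrary one. In that fit the mean of the HF + AD mice, 1.70 CPM, was at least 5.61-fold higher than the largest value a count of 0 allows in an AD library. This bound treats reads as independent molecules, and the handling of duplicate reads is not given in the sources used here. AD mouse 1, with 0 reads of Plin1 and of Lep, was at the same time the highest of all mice in Retn, Cidec and Fabp4.

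Plin4 (chr17:56100591-56109803, − strand), which codes for perilipin 4, was the steadiest of the 10 genes. AD mice 1 to 5 had 62.2, 40.9, 50.1, 50.7 and 61.4 CPM, and HF + AD mice had 44.7 to 74.7 CPM with a median of 52.5. The groups overlapped, although 3 of 7 HF + AD mice exceeded the AD group and AD mouse 2 below all HF + AD values, and the highest mouse was 1.52 times the lowest in AD and 1.67 times in HF + AD mice. Means of log2(CPM + 1) were 5.74 ± 0.24 (SD, n = 5) and 5.84 ± 0.28 (SD, n = 7), with an exact permutation p of 0.554. The log2 fold change was 0.10 (SE 0.17, adjusted p = 0.758 in edgeR's quasi-likelihood test) with a 95% interval from −0.23 to 0.44.

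Cidec (chr6:113424634-113435760, − strand) codes for a protein that fuses small droplets into a large one. Its level in AD mice 1 to 5 was 86.2, 73.3, 9.50, 9.91 and 23.4 CPM. HF + AD mouse 7 had 81.8 CPM, and the 6 other HF + AD mice had 29.2 CPM or less, down to 4.90 CPM, with a group median of 14.2. The log2(CPM + 1) values averaged 4.82 ± 1.46 (SD, n = 5) for AD against 4.08 ± 1.27 (SD, n = 7) for HF + AD, with an exact permutation p of 0.360. The log2 fold change was −0.77 (SE 0.65, adjusted p = 0.501 in edgeR's quasi-likelihood test), and it moved to −0.28 when AD mouse 1 was left out and to −1.53 when HF + AD mouse 7 was.

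Fabp4 (chr3:10204088-10208576, − strand) codes for the fatty acid carrier of the fat cell cytosol. AD mice 1 to 5 had 524, 262, 75.5, 77.0 and 79.8 CPM, from 747 to 5773 reads. HF + AD mice ranged from 56.3 to 345 CPM with a median of 165. AD mice 3, 4 and 5 lay close together, and the 2 extremes of all 12 mice were AD mouse 1 and HF + AD mouse 6. Means of log2(CPM + 1) were 7.19 ± 1.28 (SD, n = 5) and 7.21 ± 0.99 (SD, n = 7), with an exact permutation p of 0.975, and the log2 fold change was −0.21 (SE 0.50, adjusted p = 0.840 in edgeR's quasi-likelihood test).

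The same mice recurred at the top of these genes. HF + AD mouse 7 was among the 3 highest of 12 mice for all 10 genes, AD mouse 2 for 6 genes and AD mouse 1 for 5. HF + AD mouse 1 was among them for 4 genes and HF + AD mouse 2 for 3, whereas AD mice 3 to 5 and HF + AD mice 5 and 6 were among them for none. The summed CPM of the 10 genes was 840 and 478 in AD mice 1 and 2 and 174 to 219 in the 3 other AD mice, and it ran from 193 to 716 in HF + AD mice.

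**Figure D3:**
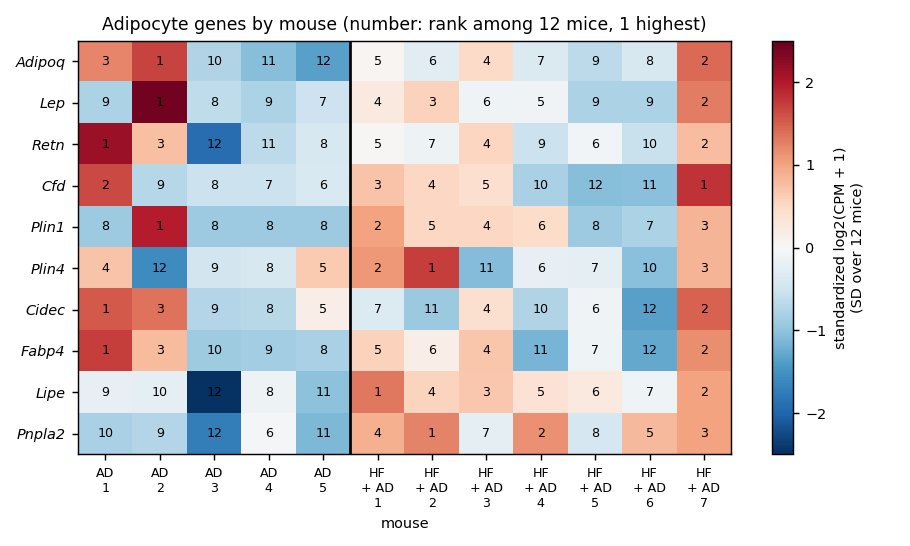
Rank of each mouse for each adipocyte gene (1 is the highest of 12, ties share a rank), coloured by log2(CPM + 1) standardized over the 12 mice, in SD. AD mice 1 and 2 and HF + AD mouse 7 are high in most hormone and droplet genes, while Lipe and Pnpla2 are lowest in AD mouse 3.

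Correlations across the 12 mice describe which of the genes varied together, and they share libraries, depth and skin composition. Against the mean of the 9 other genes, each standardized, Pearson's r was 0.82 for Fabp4, 0.78 for Adipoq, 0.74 for Retn, 0.70 for Cfd, 0.62 for Lipe, 0.61 for Plin1, 0.60 for Cidec and 0.57 for Lep. It was 0.29 for Pnpla2 and 0.23 for Plin4, so the lipase with the smaller adjusted p was among the genes that varied least with the others. The closest pair was Lep and Plin1 (r = 0.91), and both rest on few reads. Retn and Fabp4 had r = 0.87, Adipoq and Fabp4 0.83, Cidec and Fabp4 0.83, and Lipe and Pnpla2 0.79. Once group means were removed, the lipase pair had r = 0.53 and the Retn and Fabp4 pair 0.87.

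The 10 genes outside the adipocyte genes that varied most like their mean, among 13192 genes with a mean of at least 20 reads, were Cmtm3 (r = 0.94), Apbb1ip (0.93), Arrb1 (0.91), Ssbp4 (0.89), Krtap5-4 (0.89), Clec10a (0.88), Hp (0.88), C4b (0.88), Ednrb (0.87) and Serpinb6a (0.87). Clec10a is a lectin of macrophages and dendritic cells, Hp codes for haptoglobin and C4b for a complement component. None of the 10 passed the test between the groups, with edgeR adjusted p from 0.232 for Hp to 0.810 for Krtap5-4.

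Other genes of fat cells were read from fixed lists of adipokine receptors, transcription factors, further fat cell genes, droplet proteins, controllers of lipolysis, triglyceride synthesis, fatty acid synthesis, thermogenic genes and precursor cell markers. Of their 84 genes 82 were tested, with 42 above 0 and 40 below, none called higher and 4 called lower by edgeR's quasi-likelihood test, beside 4.43% and 4.77% of all genes. Their median log2 fold change was 0.01.

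Fatty acid synthesis held 2 of the 4 lower genes among its 7 members, of which 3 were above 0 and 4 below. The 3 above 0, none of them called, were Acly at 0.15, Acaca at 0.32 and Fasn at 0.52 on the log2 scale. Their edgeR adjusted p were 0.629, 0.310 and 0.0900. Scd1, which codes for the desaturase that makes monounsaturated fatty acids and is abundant in sebaceous glands, fell from a median of 2173 CPM in AD to 1073 CPM in HF + AD mice, with a log2 fold change of −0.74 (SE 0.16, edgeR adjusted p = 0.0126) and 5 of 7 HF + AD mice below all AD mice. Me1, the malic enzyme that supplies NADPH for lipid synthesis, fell from 233 to 119 CPM (log2 fold change −0.88, SE 0.18, edgeR adjusted p = 0.0101) with no overlap. Both stayed called in all 12 fits without 1 mouse. Of the 9 other droplet proteins Plin5, the perilipin of tissues that burn fat, was lower, with medians of 11.8 and 3.66 CPM, a log2 fold change of −1.56 (SE 0.40, edgeR adjusted p = 0.0248) and 6 of 7 HF + AD mice below all AD mice. Its call was lost without AD mouse 2 or HF + AD mouse 2, with an adjusted p of at most 0.0573.

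Among 11 transcription factors of fat cell differentiation Rxra, the partner of PPARγ in DNA binding, fell from a median of 281 to 203 CPM with no overlap (log2 fold change −0.52, SE 0.12, edgeR adjusted p = 0.0137). Rxra stayed called in all 12 fits without 1 mouse. Which skin cells carried Rxra was not tested. Pparg itself, named after its values were seen, had 4.45 to 13.1 CPM in AD and 11.2 to 20.5 CPM in HF + AD mice, with a log2 fold change of 0.82 (SE 0.30) that missed the threshold in edgeR's quasi-likelihood test (adjusted p = 0.0994).

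No gene of the 6 other lists passed edgeR's quasi-likelihood test. The 4 adiponectin and leptin receptors and binding proteins were all above 0, with Adipor1 at 0.13 (adjusted p = 0.603) and Adipor2 at 0.20 (adjusted p = 0.448) on the log2 scale. Among 17 further fat cell genes tested, Adig was at 0.22 (adjusted p = 0.763) and Tusc5 at −0.65 (adjusted p = 0.554). In lipolysis control, Mgll, the monoglyceride lipase that follows Lipe, was at −0.05 (adjusted p = 0.897). Abhd5, the activator protein of the Pnpla2 lipase, was at −0.37 (adjusted p = 0.0932), opposite in sign to the 2 lipases. The 9 genes of that list ran from −1.93 to 1.21, with 5 above 0 and 4 below. Of 11 uptake and triglyceride synthesis genes, Lpl was at −0.48 (adjusted p = 0.216) and Cd36 at −0.09 (adjusted p = 0.812). The brown fat gene Ucp1 was too low to be tested, and Dio2 was at 0.01 (adjusted p = 0.995). Of the 8 precursor markers, Pdgfra was at 0.96 (adjusted p = 0.190) and Pdgfrb at 0.60 (adjusted p = 0.391). Without 1 mouse, 4 more of the 84 genes passed in single fits. Ghr and Pdgfra were higher and Cidea lower in HF + AD mice without AD mouse 1, and Bscl2 was higher without AD mouse 5.

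**Figure D4:**
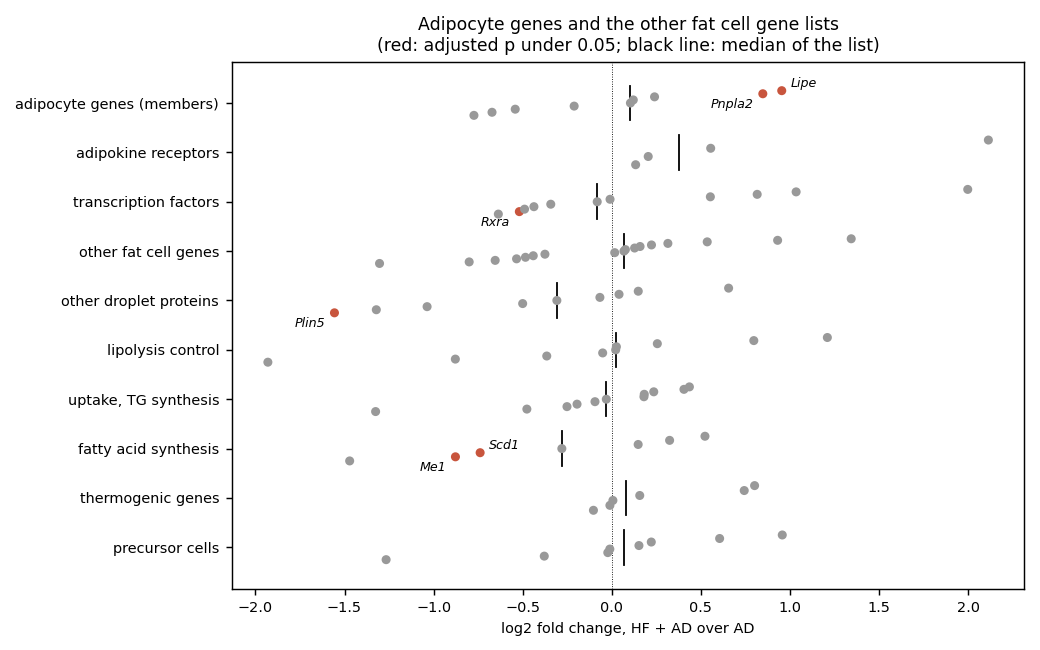
Log2 fold change of HF + AD over AD skin for the adipocyte genes and the other fat cell gene lists, 1 point per tested gene, with the list median as a black line and genes of adjusted p under 0.05 in red. The 2 red points above 0 are Lipe and Pnpla2, and the 4 below 0 are Plin5, Me1, Scd1 and Rxra.

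Whole skin also holds muscle, glands, vessels and immune cells, and markers of these were read beside the adipocyte genes. Of 10 skeletal muscle genes 9 were below 0 and 2 were called lower by edgeR's quasi-likelihood test, Acta1 at −0.72 (adjusted p = 0.0481) and Atp2a1 at −0.82 (adjusted p = 0.0340), and no gene of any marker list was at 0 in all mice. Their summed level was 1341 to 2982 CPM in AD and 866 to 2277 CPM in HF + AD mice, and these ranges overlapped. The Acta1 call was lost in 9 of 12 fits without 1 mouse and the Atp2a1 call in 8, with adjusted p up to 0.113 and 0.0857. Of 9 macrophage genes tested 8 were above 0 and none was called, with Cd68 at 0.62 (adjusted p = 0.625) and Adgre1 at −0.12 (adjusted p = 0.939), although Csf1r and C1qa passed at a higher level without AD mouse 1. Summed macrophage levels were 45.3 to 218 CPM and 70.1 to 303 CPM, highest in AD mouse 1 within its group and in HF + AD mouse 7 of all mice, which were also high in the adipocyte genes. Of 8 endothelial genes 5 were above 0 and 3, Tek, Emcn and Flt1, below, with a median of 0.15. Cdh5 (log2 fold change 1.56, adjusted p = 0.0284) and Kdr (1.06, adjusted p = 0.0243) were called higher. Summed endothelial levels were 78.5 to 144 CPM in AD and 87.1 to 169 CPM in HF + AD mice. The Cdh5 call was lost without AD mouse 2 or HF + AD mouse 1, 2, 3 or 7 and the Kdr call without HF + AD mouse 1 or 2, with adjusted p up to 0.0621 and 0.0658. Sebaceous gland genes, which matter because sebocytes also carry lipid droplets, summed to 500 to 1001 CPM and 592 to 974 CPM, and of 6 tested 4 were below 0 and none was called lower, with a median of −0.36, while Awat1 was higher (0.93, adjusted p = 0.0179). The part of these cells in the lipase result was not tested.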

How the data were processed

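Libraries of skin RNA, 1 per mouse (5 AD, 7 HF + AD), were sequenced from the 3′ ends of mRNA (Lexogen QuantSeq). The files that the authors deposited hold unnormalized counts for each gene symbol. The submitters' processing notes name Bowtie2, bedtools and mm10, and the handling of duplicate reads is not given in the sources used here. Each table lists 23282 entries, 35 symbols of them more than once, and 4677 entries were at 0 in all mice. TMM factors were 0.944 to 1.04.

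Counts were fitted with edgeR 4.0.16 in R 4.3.3 (TMM, filterByExpr, quasi-likelihood test on diet group alone, Benjamini-Hochberg adjustment at 0.05), which was checked on simulated counts. Alternatives used limma 3.58.1, DESeq2 1.42.0, other scalings and filters, GC-corrected offsets (transcript GC content in 20 bins) and left-out mice. Values per mouse are log2(CPM + 1) with a pseudocount of 1, handled in Python 3.11.15 with SciPy 1.17.1. Gene positions are from GENCODE M21 on GRCm38. The text names the 10 genes, of each list every called gene or otherwise its first 2, and the 10 genes most correlated with the adipocyte genes. Some genes that passed only without 1 mouse are also named. Pparg, Gpam, Cdh13, Lepr, Acly, Acaca, Fasn, Tek, Emcn and Flt1 were named after their values were seen. The genes and lists were chosen with earlier results of these data known. Cavin1 and Trarg1 were read under the symbols Ptrf and Tusc5, and the keratinocyte marker Flg was not used here. Same-numbered mice of the 2 groups had correlated deviations of −0.08 to 0.04, so numbers were not taken as pairs.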

Additional observations from a re-analysis of the deposited data

Results flagged for a closer look

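Among the 22 sets of one gene or ratio in one group examined for a mouse far from the rest, 3 had a mouse whose gap to its nearest neighbour took a share of the group's range above 0.71, the critical value of Dixon's test for 5 samples. Chance alone gives such a gap in about 1 in 20 sets of normal, independent values. These sets were neither, since 4 AD mice were tied at 0 reads of Plin1 and Lep varied with Plin1 (r = 0.91). The 3 flags therefore cannot be compared with that share. All 3 lay in the AD group. AD mouse 2 was apart in Lep at 2.74 log2(CPM + 1), from 55 reads, with the next mouse at 0.24 (gap over range 0.912). The same mouse was apart in Plin1 at 3.15 log2(CPM + 1), from 76 reads against 0 in the 4 other AD mice (gap over range 1.00). AD mouse 1 was apart in Cfd at 6.44 log2(CPM + 1), from 948 reads, with the next mouse at 3.78 (gap over range 0.857).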

How the results depend on the processing

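The fitted directions of Lipe, Pnpla2 and Cidec held under all 23 alternatives. The adjusted p ranged from 0.0167 to 0.103 for Lipe and from 0.00351 to 0.0779 for Pnpla2, and it was under 0.05 in 11 and 18 of them. The number of adipocyte genes called higher, 2, became 0 with GC-corrected offsets, with voom sample quality weights and in both fits of mice 1 to 5, and was 0 to 2 without 1 mouse (0 without HF + AD mouse 2); the number called lower was 0 throughout. Of all tested genes, 627 were called higher and 676 lower, against 988 higher with DESeq2's Wald test, 329 and 437 with quality weights, 246 and 227 in mice 1 to 5 unpaired, and 308 to 775 and 331 to 766 without 1 mouse, the lowest without HF + AD mouse 2. Of the other fat cell genes, 0 were called higher, against 1 with DESeq2, 3 with limma-trend and 0 to 2 without 1 mouse, and 4 lower, against 1 in mice 1 to 5 unpaired and 3 to 5 without 1 mouse.

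Cidec apart, the direction of the tested genes that were not called depended on the setting. The log2 fold changes turned to 0.37 for Adipoq, 0.33 for Retn and 0.018 for Fabp4 with limma-trend, to 1.595, 0.93 and 0.51 with quality weights, and to −0.018 for Cfd, −0.28 for Plin1 and −0.071 for Plin4 with GC-corrected offsets; Cfd was −0.25 in mice 1 to 5 unpaired. Without 1 mouse they ran from −1.19 to 0.35 (Adipoq), −0.98 to 0.48 (Retn), −0.43 to 1.49 (Cfd), −0.19 to 7.35 (Plin1, a fit against AD mice all at 0) −0.46 to 0.52 (Fabp4) and −1.53 to −0.28 (Cidec). Differences in mean log2(CPM + 1) ran from −0.31 to 0.69 (Adipoq), −0.083 to 0.62 (Lep), −0.45 to 0.56 (Retn), −0.14 to 0.81 (Cfd) and −0.22 to 0.48 (Fabp4). The Lep to Adipoq ratio differed by −0.60 to 0.31, and by 0.33 with a pseudocount of 0.1. The cause was not tested.

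With the replicate number as a block over mice 1 to 5, whose numbers do not pair them (correlations of 0.03, −0.03, −0.08, 0.04 and 0.00 for numbers 1 to 5), 0 adipocyte genes, 86 genes higher and 97 lower, and 0 of the other fat cell genes in either direction were called; Adipoq was at 0.26, Retn at 0.077 and Fabp4 at 0.023. Under the sign-flip test of the block, whose smallest p is 0.0625, the differences were −0.13 for Adipoq, −0.020 for Retn and 0.16 for the Lep to Adipoq ratio. Lep and Plin1 rest on 0 to 76 reads per mouse.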

Other observations

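Hair and epidermal genes were read as markers of other skin cells, with edgeR's quasi-likelihood test. Of 10 hair shaft and inner root sheath genes 8 were above 0 and 2 below, and 4 were called higher: Krt31 at 1.14 (adjusted p = 0.00459), Krt34 at 1.33 (adjusted p = 0.00283), Krt86 at 1.13 (adjusted p = 0.0431) and Krt71 at 0.74 (adjusted p = 0.0120) on the log2 scale. The Krt86 call was lost in 10 of 12 fits without 1 mouse. Summed hair gene levels were 7975 to 14082 CPM in AD and 10475 to 14951 CPM in HF + AD mice. Of 8 epidermal keratinocyte genes 6 were above 0 and 2 below, and the basal keratins Krt5 (0.81, adjusted p = 0.00679), Krt14 (1.05, adjusted p = 0.0248) and Krt15 (1.21, adjusted p = 0.0151) were higher, with Krt5 and Krt15 above every AD mouse in 7 of 7 HF + AD mice. The Krt14 call was lost without AD mouse 2, 3 or 4. None of 8 dermal fibroblast genes was called, with Col1a1 at −0.45 (adjusted p = 0.460) and Col1a2 at 0.25 (adjusted p = 0.701), although Col3a1 and Pdgfra passed at a higher level without AD mouse 1. Their summed level was 3364 to 10087 CPM in AD and 3354 to 10485 CPM in HF + AD mice, highest in AD mouse 1 and HF + AD mouse 7.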
